A study of Mus musculus with 6 samples.

Results

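The nuclear genes of the mitochondrial respiratory chain were taken by symbol. Complex I genes start with Nduf and complex II genes with Sdha, Sdhb, Sdhc or Sdhd. Complex III genes start with Uqcr, complex IV genes with Cox4 to Cox8, and genes of the ATP synthase, complex V, with Atp5. Of 100 protein-coding mouse genes with such symbols, 81 had a probe whose sequence accession could be matched, among 13968 genes named on the array. The remaining 19, among them the complex I core genes Ndufs3 and Ndufv2 and the ATP synthase gene Atp5g1, were not analysed here. The 81 members were 32 genes of complex I, 4 of complex II, 7 of complex III, 16 of complex IV and 15 of complex V. The other 7 met the same symbol rule but encode assembly factors, which help to build complexes I and II without staying in them. The labels of complexes are those of the symbols, and subunits encoded by mitochondrial DNA are outside the rule.

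Livers of C57BL/6 mice aged 14 months were profiled on 1-colour arrays. The 3 Src-transgenic mice (numbers 1, 3 and 4) carried a human c-Src gene, a tyrosine kinase and proto-oncogene, placed behind the mouse metallothionein promoter, and the 3 wild-type controls (numbers 1, 2 and 4) carried none. The study asked which liver genes lie downstream of Src in a line in which some animals later develop liver tumours. The metallothionein promoter responds to zinc and is not restricted to hepatocytes. The design text calls zinc usually unnecessary, and the labels do not say whether these mice received it, whether they come from 1 founder, what sex they were or whether the tissue held tumour. All values below are log2 signals after quantile normalization, which gives every array the same distribution, and differences are Src-transgenic minus wild type.

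The respiratory chain passes electrons from NADH through complex I, and from succinate through complex II, to ubiquinone, then through complex III and cytochrome c to complex IV, which reduces oxygen. Complexes I, III and IV pump protons across the inner membrane, and the ATP synthase uses the gradient to make ATP. Hepatocytes depend on the chain for gluconeogenesis, urea synthesis and fatty acid oxidation, and the factors NRF1, GABP (an ETS protein) and YY1 are known to bind promoters of many of its nuclear genes.

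Promoter sequence was not used by the symbol rule. RefSeq windows (GRCm38.p6) from 250 bases before to 50 bases after the annotated start were matched by symbol for 67 of the 81 members. Both strands were searched for CGCNTGCGC (NRF1), CCGGAAG (ETS), AAGATGGC (YY1) and TATAAA. A gene was counted when any of its windows held the letters. The NRF1 letters stood in 21 members (31.3%), against 7.03% of the 27025 genes with a window. The ETS letters stood in 16 members (23.9%, against 9.93%), and the YY1 letters in 9 (13.4%, against 3.19%). TATAAA was found in 7 members (10.4%), against 15.7% of all genes. At least 1 of the first 3 motifs was present in 39 members (58.2%), against 17.8% of all genes, and 5 members held both the NRF1 and the ETS letters. A match is a string of letters and not a measured binding site. The 250 bases before the start are shown for 1 gene of each complex, with matched letters on either strand in capitals. Only genes with 1 window were considered, and 1 chromosome was left out. Among those with a match in this stretch and no array defect at the probe, the gene with the narrowest interval of its genotype difference was taken. Cox8b, the muscle isoform of a complex IV subunit, is shown beside them as a window in which none of the 3 motifs was found.
Ndufs6 (complex I, chr13:73328483-73328732, minus strand): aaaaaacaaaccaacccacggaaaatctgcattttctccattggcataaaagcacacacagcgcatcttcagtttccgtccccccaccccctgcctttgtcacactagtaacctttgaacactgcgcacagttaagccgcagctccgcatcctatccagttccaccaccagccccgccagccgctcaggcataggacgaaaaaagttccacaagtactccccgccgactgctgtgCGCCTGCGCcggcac
Sdhd (complex II, chr9:50603850-50604099, minus strand): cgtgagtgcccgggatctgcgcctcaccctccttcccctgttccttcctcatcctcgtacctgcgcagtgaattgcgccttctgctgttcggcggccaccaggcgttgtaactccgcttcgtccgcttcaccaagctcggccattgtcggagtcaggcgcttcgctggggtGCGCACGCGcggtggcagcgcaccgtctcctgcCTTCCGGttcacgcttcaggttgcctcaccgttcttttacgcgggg
Uqcrh (complex III, chr4:116075071-116075320, minus strand): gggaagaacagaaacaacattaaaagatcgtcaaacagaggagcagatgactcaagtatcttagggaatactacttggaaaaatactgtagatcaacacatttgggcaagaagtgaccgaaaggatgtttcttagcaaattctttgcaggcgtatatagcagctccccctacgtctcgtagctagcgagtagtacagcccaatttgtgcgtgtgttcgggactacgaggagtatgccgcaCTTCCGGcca
Cox6b1 (complex IV, chr7:30626115-30626364, minus strand): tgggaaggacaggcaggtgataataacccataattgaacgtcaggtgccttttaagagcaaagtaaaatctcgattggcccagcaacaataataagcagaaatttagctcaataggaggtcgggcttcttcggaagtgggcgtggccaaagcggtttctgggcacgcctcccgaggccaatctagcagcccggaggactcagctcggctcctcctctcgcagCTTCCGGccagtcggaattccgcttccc
Atp5h (complex V, chr11:115419920-115420169, minus strand): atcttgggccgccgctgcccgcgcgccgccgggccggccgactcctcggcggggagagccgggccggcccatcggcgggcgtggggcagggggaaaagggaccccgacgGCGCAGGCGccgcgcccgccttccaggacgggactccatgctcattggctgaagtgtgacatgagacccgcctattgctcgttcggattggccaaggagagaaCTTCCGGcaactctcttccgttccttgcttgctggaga
Cox8b (complex IV, chr7:140900447-140900696, minus strand): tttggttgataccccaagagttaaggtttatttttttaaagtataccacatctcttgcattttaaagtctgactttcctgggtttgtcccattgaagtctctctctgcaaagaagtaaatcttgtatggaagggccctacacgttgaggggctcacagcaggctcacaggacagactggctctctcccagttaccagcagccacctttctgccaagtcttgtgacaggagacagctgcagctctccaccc
The capitals lie 15 to 7 bases before the start in Ndufs6 (NRF1 letters) and 10 to 4 bases before it in Uqcrh (ETS letters). In Cox6b1 the ETS letters lie 28 to 22 bases before the start. Sdhd and Atp5h each hold an NRF1 and an ETS match.

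The arrays were first set against their labels. The Src probe read 9.67, 8.48 and 7.71 in Src-transgenic livers and 6.65, 7.21 and 6.62 in wild-type livers, a log2 difference of 1.79 ± 0.51 (SE, limma adjusted p = 0.69). The exact permutation p of 0.1 is the smallest that 3 arrays against 3 allow, and whether this mouse probe reads the human transcript is not known from the files. The metallothionein genes Mt1 and Mt2, which share the kind of promoter placed before the transgene, differed by 3.71 ± 0.53 and 4.88 ± 0.44 (limma adjusted p = 0.69 and 0.35), with all transgenic arrays above all wild-type arrays. All 6 hepatocyte markers on the array were above background on all 6 arrays, with summed normalized signals, taken back to the linear scale, of 124000 to 137000 in Src-transgenic livers and 126000 to 137000 in wild-type livers. Quantile normalization gives the brightest probes of every array nearly the same values, so these sums cannot show equal hepatocyte content. With each array scaled to its median instead, Alb, Ttr, Apoa1, Tat and Ass1 differed by -0.61, -0.56, -0.64, -0.64 and -0.67, and Hnf4a by 0.24. Uty, Ddx3y and Eif2s3y, which sit on the Y chromosome, were above background on 5 arrays but not on Src-transgenic replicate 4. The fourth Y-linked gene on the list, Kdm5d, was above background on all 6 arrays and read 9.03 on that replicate, its highest value. The main counts, and the values of some members, are therefore also given without it. Median raw signals were 94.8 to 117 on Src-transgenic arrays and 53.8 to 93.4 on wild-type arrays. Before scaling, the medians of the 2 genotypes thus did not overlap, the transgenic ones being higher. The highest signal of an array did not follow this order. It was 33211, 42229 and 37790 on Src-transgenic replicates 1, 3 and 4, and 56503, 36724 and 49914 on wild-type replicates 1, 2 and 4. Patches, areas of the slide that ran bright or dim together, held 1.86% to 9.98% of the probes of an array. Local correction took the median deviation of the surrounding spots off every probe, whether it lay in a patch or not. The part of patches in a result was not tested beyond the locally corrected values given beside it. Of the hepatocyte markers, Hnf4a lay in a patch on Src-transgenic replicate 4 and Ass1 on 3 arrays. After local correction of the quantile-normalized values they stood at -0.05 and 1.06.

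No member of the respiratory chain passed the test of a genotype difference. By limma, 0 of 81 members were called at an adjusted p under 0.05 (lowest 0.70), beside 0.0% of all 34175 features. At an unadjusted p under 0.05 there were 0 members, beside 7.09% of all features (4.37% higher and 2.72% lower). The median log2 difference over the members was -0.03, with 36 positive and 45 negative values, and that over all features was 0.02. Single members ran from -0.44 for Uqcrfs1 to 0.59 for Cox6a2. In bulk liver, less RNA per cell and fewer cells of the type that carries it cannot be told apart, and the same holds for differences in the other direction.

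The absence of calls went with narrow intervals. The 95% interval of the difference lay within 2-fold either way for 76 of 81 members (93.8%), against 48.4% of all features and 66.0% of the 19253 features above background on all 6 arrays. It lay within 1.5-fold for 32 members. The median within-group SD of a member was 0.19 on the log2 scale, against 0.36 over all features and 0.29 over those above background on all arrays. Nearly all members were well measured, with 76 of 81 above background on all 6 arrays (93.8%), against 56.3% of all features, and 7 members in a patch on at least 1 array (8.64%, against 18.0%). The 5 members whose interval reached beyond 2-fold were Ndufab1, Uqcrfs1, Cox6a2, Cox5a and Cox7b2. These figures bound each difference on this scale, and a p that misses the threshold does not show that a gene was equal in both genotypes.

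**Figure D1:**
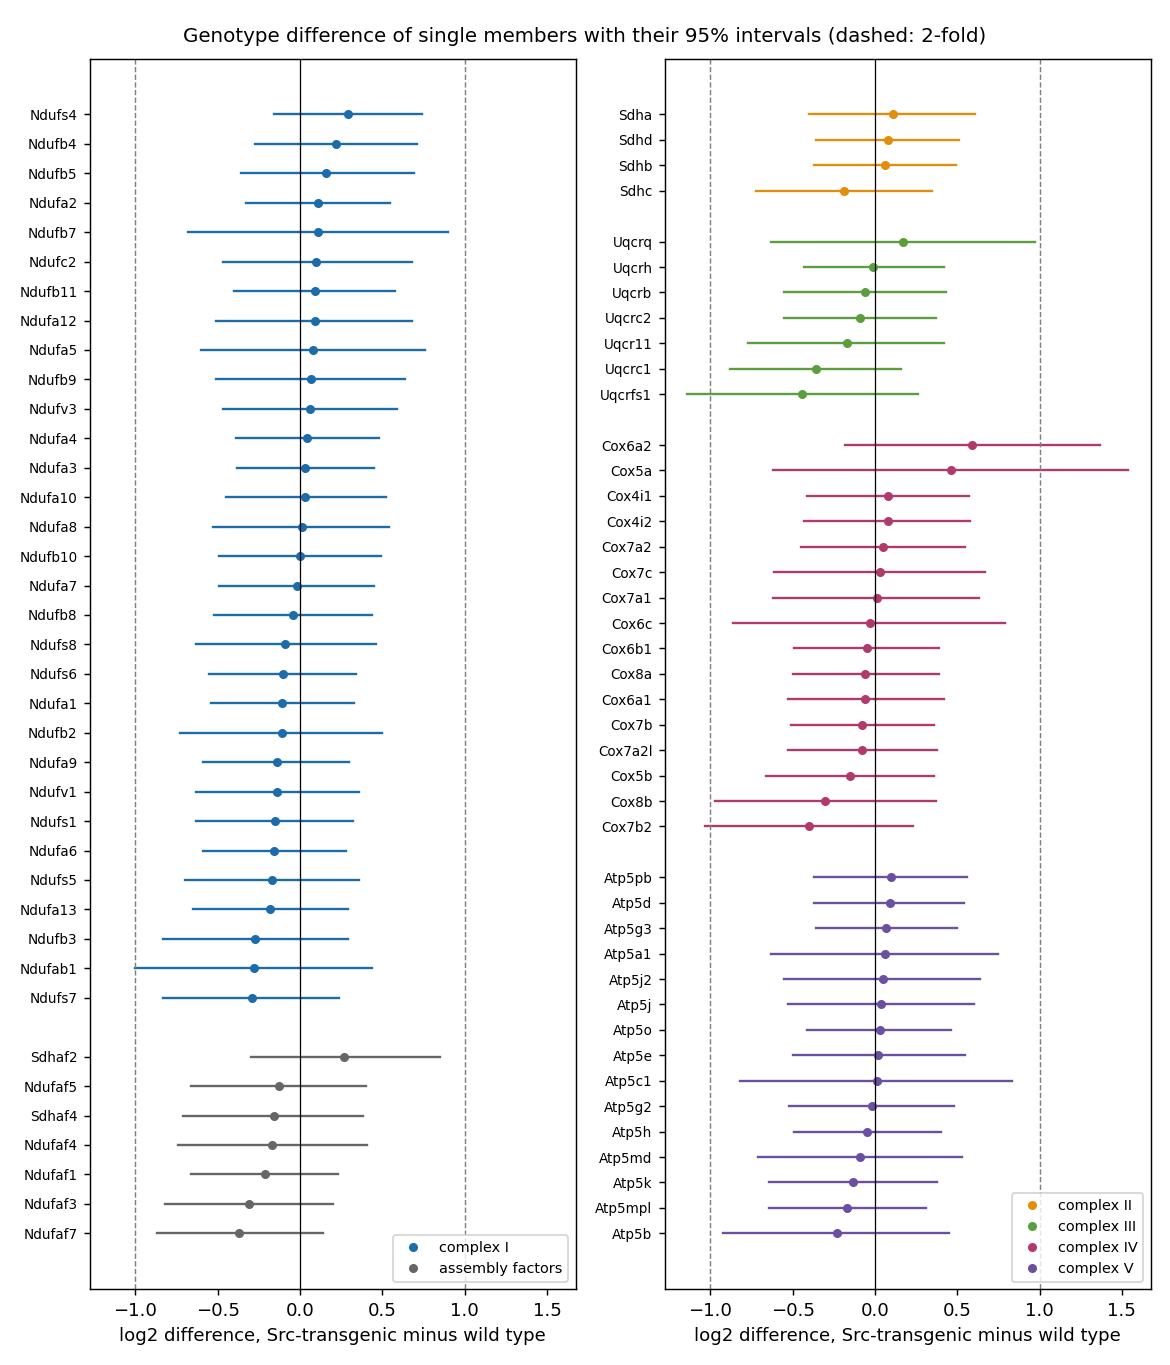
Log2 difference, Src-transgenic minus wild type, for 80 of the 81 members (points), each with its 95% interval from limma (lines), coloured by complex, with dashed lines at 2-fold either way. Each of the 80 intervals includes 0, and 75 of 80 lie inside the dashed lines. Uqcrq and Cox7b2 were above background on no array, and Cox8b, Cox4i2 and Cox7a1 on 5 of 6.

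With all arrays and quantile normalization, members whose genotypes did not overlap, called separated here, made up a smaller share than among all features. In 1 member every Src-transgenic value exceeded every wild-type value, and in 4 every Src-transgenic value was the lower, together 6.17% of the members. Over all features the share was 16% (10.1% above and 5.9% below). The member above was Ndufs4, and the members below were Ndufa6, Uqcrc1, Ndufaf3 and Ndufaf7. Without Src-transgenic replicate 4 the count was 1 above and 11 below, beside 15.0% and 10.4% of all features, and 24 members had positive and 57 negative values. Among members described below, the difference without that array was -0.09 for Ndufc2, 0.09 for Ndufb4, 0.42 for Cox6a2, 0.01 for Cox6a1, -0.13 for Atp5g2 and -0.26 for Atp5c1. Those of Ndufa13 and Ndufaf4 were then -0.28 each. By limma 0 members were then called, beside 0.00293% of all features, which is 1 feature.

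The array means of the members were spread more widely among wild-type livers than the genotypes lay apart. The mean of all 81 members, relative to the wild-type mean of each gene, was -0.05, -0.11 and 0.04 on Src-transgenic replicates 1, 3 and 4. It was 0.10, 0.02 and -0.12 on wild-type replicates 1, 2 and 4, so all 3 transgenic arrays lay inside the wild-type range. Wild-type replicate 1 had 64 of the 81 members above their wild-type mean, and wild-type replicate 4 had 12. Complexes I and V stood at 0.12 and 0.14 on wild-type replicate 1 and at -0.14 and -0.19 on wild-type replicate 4. Complex IV moved least, with array means between -0.06 and 0.05. Members of 1 array share its RNA and its scaling and are not replicates.

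**Figure D2:**
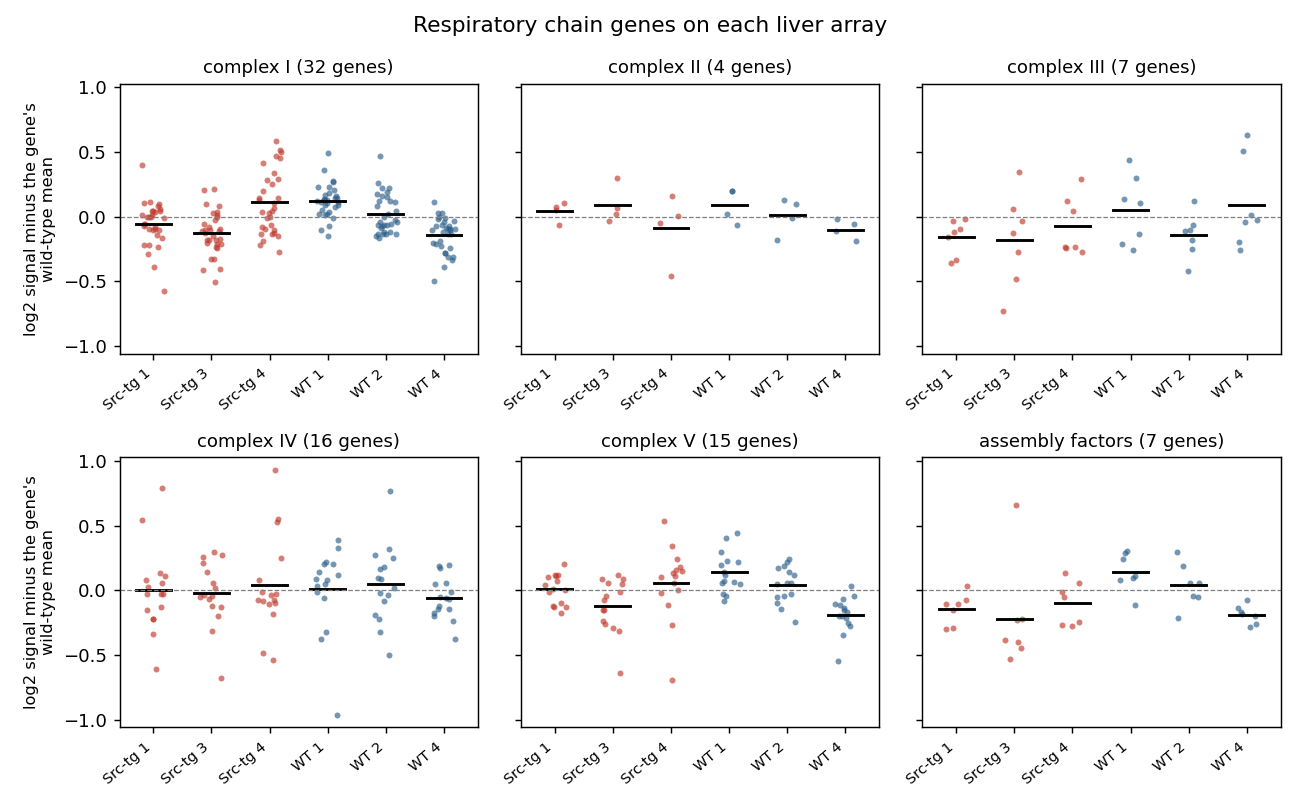
Each point is 1 member on 1 array, as log2 signal minus the wild-type mean of that gene, in 6 panels for complexes I to V and the assembly factors, with Src-transgenic arrays left in red and wild-type arrays right in blue. Black bars are array means. In complex I the transgenic means of -0.06, -0.13 and 0.11 lie within the wild-type range of -0.14 to 0.12.

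Complex I, which oxidizes NADH, had 32 members with a median log2 difference of -0.01 and 15 positive and 17 negative values. All were above background on all 6 arrays, and 31 intervals lay within 2-fold. The 5 core members, which carry the flavin and the iron-sulfur clusters and bind ubiquinone, had a median of -0.14. Ndufv1, which holds the flavin that takes electrons from NADH, read 10.35, 10.36 and 10.41 in Src-transgenic livers, against 10.62, 10.68 and 10.23 in wild-type livers. Its difference was -0.14 ± 0.20 (SE, limma adjusted p = 0.85), and the groups overlapped through wild-type replicate 4. Ndufs1, the largest iron-sulfur subunit, differed by -0.15 ± 0.20. Ndufs8, another iron-sulfur subunit, differed by -0.09 ± 0.22. Ndufs7, which carries the last iron-sulfur cluster before ubiquinone, had the largest negative value of the complex. It read 10.51, 10.91 and 10.96 in Src-transgenic livers and 11.18, 11.20 and 10.87 in wild-type livers, a difference of -0.29 ± 0.22 (limma adjusted p = 0.74). Leaving out single arrays moved it between -0.40 and -0.15.

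The 27 supernumerary members of complex I, which surround the core, had a median of 0.03 with 15 positive and 12 negative values. Ndufs4, an accessory subunit whose loss in mice gives a disease like Leigh syndrome, read 11.37, 11.18 and 11.22 in Src-transgenic livers, against 11.11, 10.93 and 10.87 in wild-type livers. The groups did not overlap, yet the lowest transgenic array stood only just above the highest wild-type one. The difference was 0.29 ± 0.18 (95% interval -0.16 to 0.74, limma adjusted p = 0.72). It was 0.01 under median scaling. Ndufa6, an LYR-motif subunit that binds the acyl carrier protein, read 10.61, 10.53 and 10.52 in Src-transgenic livers, against 10.85, 10.64 and 10.64 in wild-type livers, a difference of -0.16 ± 0.18. Its groups were separated by a small gap. Ndufab1, the mitochondrial acyl carrier protein, differed by -0.28 ± 0.30 and was spread from 8.73 to 9.70 among the wild-type arrays. Ndufa13, also known as GRIM-19, differed by -0.18 ± 0.19 and Ndufb3, of the membrane arm, by -0.27 ± 0.23. Ndufb4, of the same arm, differed by 0.22 ± 0.20 and lay in a patch on 2 arrays, and local correction of patches turned its value to -0.38. Ndufa4, whose protein is now placed in complex IV, differed by 0.04 ± 0.18.

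Complex II, succinate dehydrogenase, which also works in the citric acid cycle, had all 4 subunits measured with a median of 0.07. Sdha, the flavoprotein that oxidizes succinate, read 12.47, 12.69 and 12.34 in Src-transgenic livers and 12.59, 12.22 and 12.37 in wild-type livers. Sdhb, its iron-sulfur partner, read 12.96, 12.92 and 12.86 in Src-transgenic livers, against 12.79, 12.98 and 12.80 in wild-type livers. The groups overlapped in both genes, with differences of 0.11 ± 0.21 for Sdha and 0.06 ± 0.18 for Sdhb. Of the membrane anchors, Sdhd differed by 0.08 ± 0.18. Sdhc differed by -0.19 ± 0.22, and by -0.05 without Src-transgenic replicate 4. The interval of Sdhb, -0.37 to 0.49, was among the narrowest of the members.

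Complex III, which passes electrons to cytochrome c, had 7 members with a median of -0.09, 1 positive and 6 negative values. The positive one was that of Uqcrq, which was above background on no array, and without it the median was -0.13. Uqcrc1, a core protein of the matrix side, read 6.74, 6.59 and 6.80 in Src-transgenic livers, against 7.37, 6.97 and 6.87 in wild-type livers. All transgenic arrays lay below all wild-type arrays by a small margin, with a difference of -0.36 ± 0.21 (95% interval -0.88 to 0.16, limma adjusted p = 0.70). Its partner core protein Uqcrc2 differed by -0.09 ± 0.19. Uqcrfs1, the Rieske iron-sulfur protein, had the most negative value of all members, -0.44 ± 0.29, with 12.26, 11.89 and 12.38 in Src-transgenic livers and 12.36, 12.37 and 13.12 in wild-type livers. Wild-type replicate 4 stood high. The probe lay in a patch on 4 arrays, and local correction turned the value to 1.21 (limma adjusted p = 0.65), so its direction depends on that correction. Of the small subunits, Uqcrh, the hinge protein, differed by -0.01 ± 0.18 and Uqcrb by -0.06 ± 0.20.

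Complex IV, cytochrome c oxidase, had 16 nuclear members with a median of -0.04, 7 positive and 9 negative values. Cox4i1, the common isoform of its largest nuclear subunit, read 12.96, 13.11 and 12.86 in Src-transgenic livers, against 12.93, 12.68 and 13.09 in wild-type livers. The groups overlapped, with a difference of 0.08 ± 0.20. Cox5b differed by -0.15 ± 0.21. Cox5a read 9.69, 9.44 and 9.68 in Src-transgenic livers and 8.18, 9.91 and 9.34 in wild-type livers. The low wild-type replicate 1, where the probe lay in a patch, set the difference of 0.46 ± 0.45, which was -0.02 without that array and 0.23 after local correction.

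Several complex IV subunits come as isoform pairs, with 1 form found in most tissues and another known from heart and skeletal muscle. The common forms Cox6a1, Cox7a2 and Cox8a differed by -0.06 ± 0.20, 0.05 ± 0.21 and -0.06 ± 0.18. The muscle form Cox6a2 had the largest value of all members, reading 10.47, 9.74 and 10.61 in Src-transgenic livers and 9.30, 10.01 and 9.74 in wild-type livers. The groups overlapped through Src-transgenic replicate 3 and wild-type replicate 2, and the difference of 0.59 ± 0.32 did not pass (95% interval -0.18 to 1.37, limma adjusted p = 0.70). Its range without single arrays was 0.40 to 0.86. Cox6a2 was above background on all 6 arrays. Of 6 markers of skeletal or heart muscle, 0 were above it on all arrays, the myoglobin gene Mb was on 3 Src-transgenic and 2 wild-type arrays, and 3 of them, among them the actin gene Acta1, were on none. The summed normalized signal of those markers was 151 to 1040 in Src-transgenic livers and 144 to 201 in wild-type livers, the highest value coming from Src-transgenic replicate 3, where the Myh4 probe lay in a patch. Their part in the Cox6a2 values was not tested. The muscle forms Cox7a1 and Cox8b and the Cox4i2 isoform were above background on 3 Src-transgenic and 2 wild-type arrays and differed by 0.01 ± 0.26, -0.30 ± 0.27 and 0.08 ± 0.21. Cox7b2 was not above background on any array. Cox7a2l differed by -0.08 ± 0.19, and Cox6b1 by -0.05 ± 0.18.

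**Figure D3:**
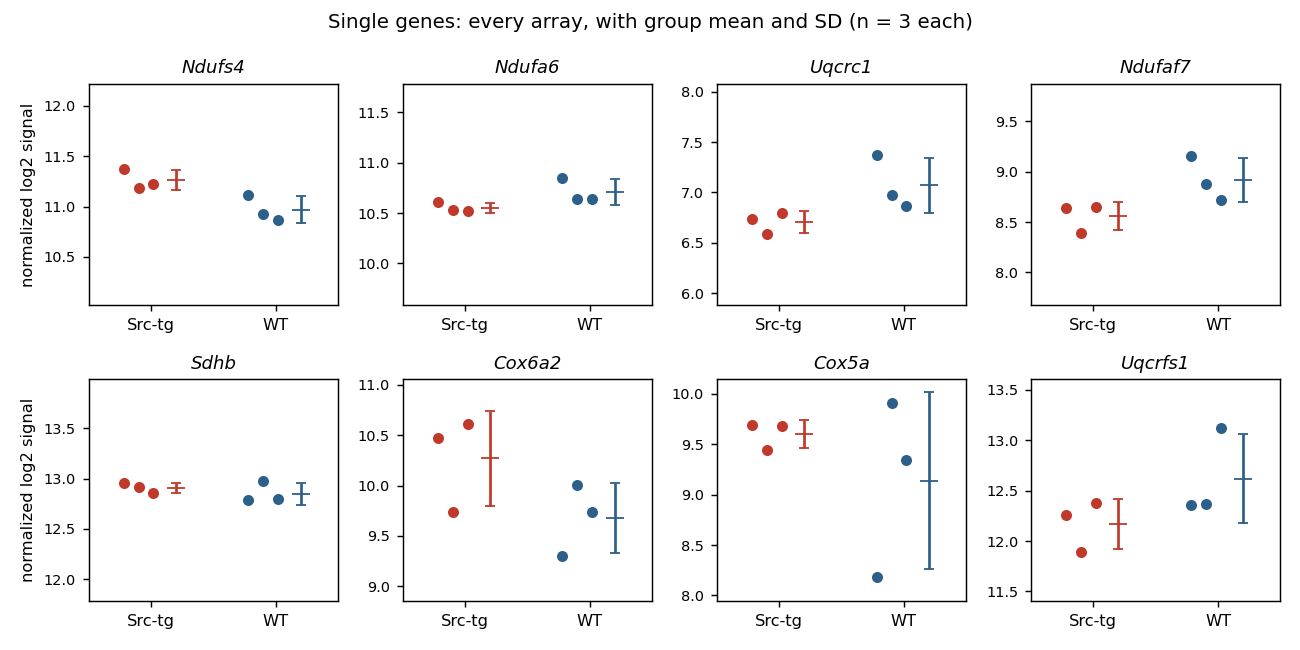
Normalized log2 signal of 8 members on every array (points), with group mean and SD (n = 3 each), Src-transgenic left and wild type right in each panel, on axes of equal length placed at different levels. Ndufs4 is separated upwards, and Ndufa6, Uqcrc1 and Ndufaf7 downwards, each by a small gap. Sdhb, Cox6a2, Cox5a and Uqcrfs1 overlap, and Cox5a shows the low wild-type replicate 1 at 8.18.

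Complex V, the ATP synthase, had 15 members with a median of 0.02, a range of -0.23 to 0.10, narrower than in complexes I, III and IV, and all 15 intervals within 2-fold. Atp5b, the catalytic beta subunit, read 10.53, 10.78 and 9.97 in Src-transgenic livers, against 10.96, 10.51 and 10.51 in wild-type livers. Src-transgenic replicate 4 was the low array, and the difference of -0.23 ± 0.28 came to 0.00 without it. Atp5a1, the alpha subunit, read 12.04, 11.97 and 11.93 in Src-transgenic livers and 12.33, 12.07 and 11.38 in wild-type livers, a difference of 0.06 ± 0.28. Atp5c1, the gamma subunit that turns inside the catalytic head, differed by 0.01 ± 0.34 and lay in a patch on 3 arrays. The membrane ring is built from the c subunit, for which Atp5g2 differed by -0.02 ± 0.21 and Atp5g3 by 0.07 ± 0.18. Atp5pb, of the peripheral stalk, had the largest value of the complex, 0.10 ± 0.19. Atp5mpl, a small membrane subunit, differed by -0.17 ± 0.20.

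The 7 assembly factors had a median of -0.17, with 6 of 7 values negative and 2 of 7 separated, both downwards, beside 5.9% of all features. It was the most negative median of the classes under quantile normalization and cyclic loess, whereas under median scaling it was -0.33, against -0.36 for complex III. Ndufaf7, a methyltransferase that acts during the building of complex I, read 8.64, 8.39 and 8.65 in Src-transgenic livers, against 9.16, 8.88 and 8.72 in wild-type livers. Its difference was -0.37 ± 0.21 (limma adjusted p = 0.70). A second Ndufaf7 probe read 6.35, 6.50 and 6.19 in Src-transgenic livers and 7.34, 6.78 and 6.58 in wild-type livers, separated the same way with -0.55 ± 0.26 (limma adjusted p = 0.69). Ndufaf3, an early factor of the same assembly line, read 8.96, 8.87 and 9.02 in Src-transgenic livers, against 9.55, 9.04 and 9.18 in wild-type livers, a difference of -0.31 ± 0.21. All transgenic arrays lay below all wild-type arrays in both genes, with the gap to the nearest wild-type array small. Ndufaf1, Ndufaf4 and Ndufaf5 differed by -0.21 ± 0.18, -0.17 ± 0.24 and -0.13 ± 0.22. Sdhaf2, which attaches the flavin to Sdha, differed by 0.27 ± 0.24, and Sdhaf4 by -0.16 ± 0.22. None of the 7 reached an unadjusted p under 0.05. The median of the assembly factors ran from -0.30 to -0.08 when single arrays were left out.

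Where a member had 2 probes, the brighter one stands for the gene above. The second probes of Ndufc2 and Uqcrh differed by 0.19 ± 0.30 and -0.32 ± 0.19, against 0.10 ± 0.24 and -0.01 ± 0.18 for the probes used. The second Atp5c1 probe was above background only on Src-transgenic replicate 3, where it lay in a patch, and is given no difference. The second Uqcrh probe read 12.59, 12.43 and 12.66 in Src-transgenic livers, against 12.73, 12.96 and 12.96 in wild-type livers, and lay in a patch on Src-transgenic replicate 3. It was separated downwards, while the Uqcrh probe used overlapped.

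The size of the shift depended on how the arrays were scaled. Under median scaling the members had a median of -0.31, against -0.08 over all features, and 74 of 81 values were negative. Under scaling to the 75th percentile the medians were -0.29 and -0.06, and under the authors' scaled values -0.31 and -0.08. Cyclic loess, which like quantile normalization adjusts bright and dim probes separately, gave -0.03 and -0.01. The members belong to the bright probes, 72 of 81 lying among the 8544 features with the highest mean signal. Among these features the median was -0.13 overall and -0.31 over the members under median scaling, against 0.01 and -0.04 under quantile normalization. Under median scaling 0 members were called, 0 were separated upwards and 11 downwards, beside 8.03% and 7.57% of all features, and 2 were lower at an unadjusted p under 0.05, beside 3.84%. These 2 were Uqcrfs1, at -0.72, and Cox7b2, which was above background on no array. Which scaling is nearer to the amount of RNA in the tissue was not tested.

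**Figure D4:**
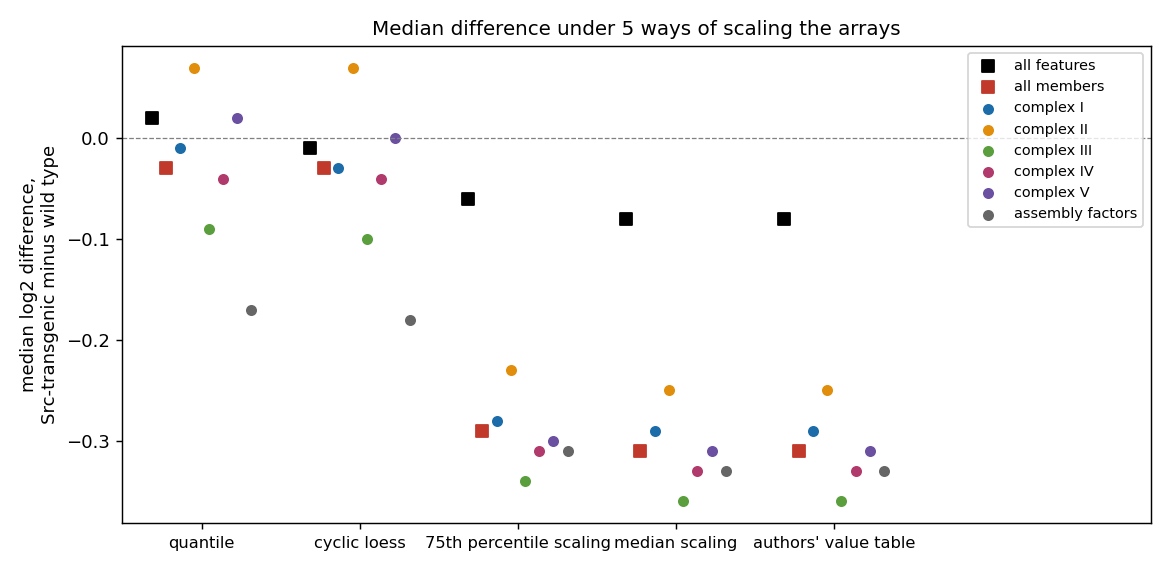
Median log2 difference, Src-transgenic minus wild type, of all features (black), all members (red) and the members of each complex under 5 ways of scaling the arrays. Members lie between -0.17 and 0.07 by class under quantile normalization and between -0.36 and -0.25 under median scaling and in the authors' value table.

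Among genes that work beside the chain, 0 were called by limma in each of 6 lists. At an unadjusted p under 0.05, 2 biogenesis regulators were lower and 1 citric acid cycle gene was higher. Of 12 genes of electron carriers, which include cytochrome c and the enzymes of ubiquinone synthesis, 6 had positive and 6 negative values, and the median was -0.01. The cytochrome c gene Cycs differed by -0.04 ± 0.21 and Cyc1, the cytochrome c1 subunit of complex III, by -0.05 ± 0.22. The genes with the smallest p of this list belong to ubiquinone synthesis. Coq7 differed by -0.46 ± 0.29 and Pdss1, above background on 2 arrays of each genotype, by -0.42 ± 0.30. Coq5, in a patch on 2 arrays, differed by 0.36 ± 0.28, and by -0.41 after local correction. Of 18 further assembly factors of complexes II to V, 15 had negative values, with a median of -0.10, and 3 were separated downwards, beside 5.9% of all features. These were Cox11, which delivers copper to complex IV, at -0.41 ± 0.20, Atpaf2, a chaperone of the ATP synthase head, at -0.30 ± 0.18, and Coa5. Coa5 differed by -0.35 ± 0.24 and lay in a patch on 4 arrays, and local correction turned its value to 1.29. Surf1, a complex IV assembly factor in a patch on Src-transgenic replicate 3, differed by -0.60 ± 0.34, and by -0.21 after local correction. A second Atpaf2 probe gave -0.18 ± 0.23.

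Regulators of mitochondrial biogenesis and mtDNA transcription had 14 genes on the array, with 9 negative values and a median of -0.19. Of these, 4 were separated downwards, beside 5.9% of all features, and 2 were lower at an unadjusted p under 0.05, beside 2.72%. Ppargc1b, a coactivator of these programmes, read 8.08, 7.38 and 7.96 in Src-transgenic livers, against 8.59, 8.46 and 8.25 in wild-type livers. All transgenic arrays lay below, and the difference of -0.63 ± 0.26 had an unadjusted p of 0.0481 (limma adjusted p = 0.69). It was -0.42 after local correction, although the probe lay in no patch, and -0.41 without Src-transgenic replicate 3. Mterf1a, a mitochondrial termination factor, was above background on no Src-transgenic array and on all 3 wild-type arrays. Its signals lay near the threshold, at 35.7, 44.7 and 28.9 in Src-transgenic livers (thresholds 38.19, 49.3 and 50.62). They were 42.3, 46.5 and 58.7 in wild-type livers (thresholds 33.03, 44.23 and 41.57). The group means set it at least 1.52-fold lower (limma unadjusted p = 0.00743, adjusted p = 0.69). That bound leaves out sampling error, and the 95% interval of the log2 difference was -1.53 to -0.36. Its second probe was above background on 1 array, Src-transgenic replicate 4, in a patch. Polg2, the accessory subunit of mitochondrial DNA polymerase, differed by -0.74 ± 0.33, and by -0.49 to -0.94 without single arrays. Esrra, a nuclear receptor that works with these coactivators, differed by -0.52 ± 0.27, and both it and Polg2 were separated downwards. Yy1 differed by 0.19 ± 0.32 and lay in a patch on 3 arrays, and local correction gave -0.23.

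The citric acid cycle, which feeds electrons to the chain, had all 14 listed genes above background, 8 with positive and 6 with negative values and a median of 0.06. Dlst, of the 2-oxoglutarate dehydrogenase complex, read 12.88, 12.91 and 13.11 in Src-transgenic livers and 12.04, 12.45 and 12.65 in wild-type livers, a difference of 0.59 ± 0.23 at an unadjusted p of 0.041 (limma adjusted p = 0.69). The value was 0.28 under median scaling, and a second Dlst probe, also above background on all arrays, gave -0.20 ± 0.24, so the probes disagree in sign. Fh1, the fumarase, differed by 0.47 ± 0.33, and by 0.24 under median scaling. Of 9 membrane carriers the median was 0.00, with Slc25a13, the aspartate and glutamate carrier, at 0.25 ± 0.20 and at 0.00 under median scaling. Of 7 mitochondrial antioxidant genes the median was -0.01, with Gpx1, a glutathione peroxidase, at 0.35 ± 0.19 and Prdx3, a peroxiredoxin, at -0.14 ± 0.19. Gpx1 read 14.17, 14.19 and 14.17 in Src-transgenic livers, against 13.68, 14.04 and 13.77 in wild-type livers, without overlap, and its difference was -0.09 under median scaling.

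Markers of other cell types were counted beside these values, as the number above background on all 6 arrays and their summed normalized signal on the linear scale, and their part in the values was not tested. Macrophage and Kupffer cell markers had 4 of 4, with summed signals of 2720 to 5180 in Src-transgenic livers and 2920 to 3630 in wild-type livers. Endothelial markers had 4 of 5, with summed signals of 2430 to 3140 in Src-transgenic livers and 2710 to 3410 in wild-type livers. Stellate cell markers had 4 of 6, with summed signals of 2970 to 4290 in Src-transgenic livers and 2960 to 4160 in wild-type livers. The ranges of the genotypes overlapped in each of these. Cholangiocyte markers had 3 of 4, with summed signals of 817 to 1240 in Src-transgenic livers and 834 to 1170 in wild-type livers. Lymphocyte markers had 5 of 7, with summed signals of 1190 to 1900 in Src-transgenic livers and 1240 to 1410 in wild-type livers. The median difference of the 7 was -0.52, with 2 positive and 5 negative values. Of these, Cd3g, part of the T cell receptor complex, and Nkg7, of cytotoxic granules, differed by -0.74 ± 0.29 and -0.56 ± 0.22 at unadjusted p of 0.0411 and 0.0419 (limma adjusted p = 0.69 for each). Cd79a, of the B cell receptor, was separated upwards at 0.56 ± 0.37 with a patch on Src-transgenic replicate 3, and was at -0.06 after local correction. Cd3e, above background on Src-transgenic replicate 4 alone, in a patch, read 6.04 there and 3.53 to 4.72 on the other arrays. Cd79a and Cd3e were the 2 with positive values. Ms4a1, above background on 1 array of each genotype and in a patch on 3 arrays, differed by -1.88 ± 0.88. Neutrophil markers had 3 of 5, with summed signals of 440 to 838 in Src-transgenic livers and 327 to 764 in wild-type livers. Adipose markers had 1 of 5, with summed signals of 362 to 908 in Src-transgenic livers and 506 to 824 in wild-type livers. The ranges overlapped here too, as they did in the remaining lists. Erythroid markers had 2 of 3, with summed signals of 15700 to 24800 in Src-transgenic livers and 12500 to 20800 in wild-type livers. Exocrine pancreas markers had 1 of 4, with summed signals of 257 to 566 in Src-transgenic livers and 167 to 424 in wild-type livers. A linear sum follows its brightest markers, so overlapping sums do not show that single markers overlapped. The erythroid Alas2 was separated downwards at -1.03 ± 0.72, reading 8.03 on Src-transgenic replicate 4. Adipoq, above background on 1 array of each genotype, was separated downwards at -0.92 ± 0.42, and the cholangiocyte marker Krt7 upwards at 0.88 ± 0.41.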

How the data were processed

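Biotin-labelled cRNA made from total liver RNA of 6 mice was hybridized to 1-colour arrays, per the labels' protocols. The authors deposited an intensity per spot from which background had been taken out, per the file headers, and the same intensity divided by 1 constant per array, which also fills their value table. The sources used here do not give scanner, image software or genome build. After removal of 620 control spots, the lowest intensities of each array were raised to the 1st percentile of its positive ones, and log2 values of the deposited intensity were quantile normalized. Accessions, without versions, named 14760 of 34967 probes through the RefSeq table of GRCm38.p6, used for names, and 20207 stayed unnamed. The probe with the highest mean signal stands for a gene. Above background means over the median of 570 control spots by more than 3 scaled median absolute deviations. A patch is where the median deviation of spots within 4 rows and columns exceeded 0.5 on the log2 scale. Local correction subtracted that median from every probe on every array, also outside patches.

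Genotypes were compared by limma 3.58.1 (R 4.3.3), two-sided, with Benjamini-Hochberg adjustment over 34175 features, and SE and 95% intervals are its moderated ones. Only the limma step was tested on simulated data, with differences planted in values drawn from the normalized means and spreads. The number of arrays limits precision. The labels number transgenic samples as mice and wild-type samples as controls, and shared numbers were not treated as pairs in the main comparison. Deviations from the group means correlated at r = 0.060 and 0.058 for numbers 1 and 4. Without the same value for unshared numbers, this cannot show whether the numbers pair samples. Named genes were the 20 members with the smallest p, central subunits, isoform pairs, the extremes of each complex and up to 3 genes per further list. Ndufs8, Uqcrc2, Uqcrb, Uqcrh, Sdhd, Ndufc2, Ndufaf4, Ndufaf5, Sdhaf4, Cycs, Cyc1, Coa5, Yy1, Esrra, Kdm5d, Mb, Cd79a and Cd3e were named after their values were seen. Values of 1 member and 1 citric acid cycle gene that the rule named are not reported here. Members and lists were chosen with earlier results of these data known. For a gene above background in 1 genotype alone, the fold sets the bright mean against, per dim array, the higher of the probe and the lowest signal above background. Figures were drawn with matplotlib 3.10.9.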

Additional observations from a re-analysis of the deposited data

How the results depend on the processing

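The count of members called at an adjusted p under 0.05 was 0 in each of the 20 alternatives to quantile normalization of the deposited intensities, including every array left out. Over all features the count was 1 of 34175 without Src-transgenic replicate 4, likewise 1 without wild-type replicate 1, and 0 in the remaining alternatives. These counts therefore do not set the members apart from the other features. Under median scaling, scaling to the 75th percentile and the authors' value table the medians were -0.31, -0.29 and -0.31 for all members, -0.29, -0.28 and -0.29 for complex I, -0.25, -0.23 and -0.25 for complex II, -0.36, -0.34 and -0.36 for complex III, -0.33, -0.31 and -0.33 for complex IV, -0.31, -0.30 and -0.31 for complex V, and -0.33, -0.31 and -0.33 for the assembly factors. Minus the median of all features, that of the members was -0.23 in each of the 3, against -0.05 under quantile normalization. In each of the 3, 2 members were lower at an unadjusted p under 0.05, beside 3.84%, 3.77% and 3.83% of all features. In each, 0 members were separated upwards, beside 8.03%, 8.64% and 8.04% of all features. The 11 separated downwards stood beside 7.57%, 7.47% and 7.54%. Cyclic loess gave 2 separated upwards and 7 downwards, against 8.68% and 8.11% of all features. Local correction, applied to every probe, gave 1 member higher and 2 lower at an unadjusted p under 0.05 (3.44% and 4.18% of all features). It gave 2 separated upwards and 8 downwards (8.93% and 8.73%). The complex II median became -0.04, with 0 complex II members in a patch. Uqcrfs1 turned to 1.21 and Ndufb4 to -0.38. The cause of these shifts was not tested.

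Leaving out 1 array at a time gave medians of -0.09 to 0.01 for all members, -0.12 to -0.01 relative to all features, -0.11 to 0.04 for complex I, 0.02 to 0.07 for complex II, -0.16 to -0.02 for complex III, -0.09 to -0.01 for complex IV, -0.08 to 0.08 for complex V and -0.30 to -0.08 for the assembly factors. Between 1 and 8 members were then separated upwards, 8 of them without wild-type replicate 2 (14.3% of all features), and between 5 and 20 downwards, 20 of them without wild-type replicate 4 (14.7% of all features), with fewer arrays to separate. At an unadjusted p under 0.05, 0 to 1 members were higher and 0 lower, beside 2.79% to 4.56% and 1.88% to 3.89% of all features. A replicate block on the shared numbers 1 and 4 gave 1 member higher at an unadjusted p under 0.05, beside 1.99% of all features, and a complex III median of -0.22. It changed no call at an adjusted p under 0.05.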
